A study of Mus musculus with 23 samples.

Results

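The genes described here are the chemokines and their receptors of the mouse brain, taken as every gene whose symbol is Ccl, Cxcl, Ccr or Cxcr with a number and an optional letter, together with Cx3cl1, Xcl1 and Xcr1. The rule found 61 features among the 32285 genes of the table. They carry 55 symbols, 38 of ligands and 17 of receptors, because several symbols of near-identical gene copies stand on more than 1 Ensembl identifier. In the cells that passed the filters, 9 features had no UMI (a UMI is 1 counted mRNA molecule), 2 (Ccl21a and Cxcr1) had 1 or 2, and 50 had at least 3. Of these 50, 37 reached at least 5 CPM (UMIs of a gene scaled to a common total of UMIs per class) in their highest cell class, and the levels given are of these. The other 13 (Ccl1, Ccl20, Ccl26, Ccl28, Ccr10, Ccr3, Ccr8, Cxcl1, Cxcl15, Cxcl17, Cxcl3, Cxcl5 and Xcr1) had from 6 to 903 UMIs in all cells together. Cells that no marker list named have no class level. Xcr1 (187 UMIs in 80 cells) was among the leading genes of such a group, subcluster 8.4 with 58 cells. Reads of Ccl21a, Ccl21b and Ccl21c, and of Ccl27a and Ccl27b, could be split or lost between copies, so the absence of Ccl21 and Ccl27b counts is uncertain.

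Brain cells were sorted by how much of a dye-labelled antibody they carried, and the RNA of single cells was counted. Mice 3.3 months old were given 45 mg/kg into a tail vein of an antibody conjugated to the dye AF647. ATV-TfR (label DNP02_hIgG1_LALAPG_ATV35.23.2 - Alexa647) was given to TfR mu/hu KI mice, ATV-CD98hc (label DNP02 LALAPG LLB2-10-8 monovalent - Alexa647) to CD98hc mu/hu KI mice, and control IgG (label DNP02_hIgG1_LALAPG_Alexa647) to C57BL/6 mice, so antibody and genotype cannot be told apart. No group was left undosed. ATV is an antibody built to bind a transport receptor of the brain capillary, here the transferrin receptor or CD98hc. All brains were taken 24 hours after the dose and dissociated in the presence of actinomycin D and anisomycin, which block transcription and translation. Each treatment had 2 pools. A pool joined the brains of a male with those of a female, 1 of each, and was sorted into a negative, low, medium and high bin. The fluorescence gates were set on the ATV-TfR cells and then applied to every treatment. Control IgG pool 1 has no negative library here, which leaves 23 libraries in 12 groups.

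Chemokines are small secreted proteins that guide leukocytes, and a few of them also guide or maintain cells that live in the brain. CXCL12, CXCL14 and CX3CL1 belong to the homeostatic kind, made without injury, while CCL2, CCL3, CCL4, CXCL2, CXCL9 and CXCL10 are mostly made on activation of macrophages, microglia or vessel cells. The receptors are G protein-coupled and largely mark the cell that responds: CCR2 on monocytes, CXCR2 on neutrophils, CXCR3 and CXCR6 on T cells, and CCR7 and CXCR5 on lymphocytes that home to lymphoid tissue. Ligands can be shared between receptors, and atypical receptors such as ACKR3 take up ligand without the usual signal.

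The promoters of 4 ligands are shown because these genes were high in small groups of myeloid cells described below: Ccl3, Ccl9 and Ccl12 in 1 subset of microglia-like cells and Cxcl2 in neutrophil-like cells. They were not confined to these groups. The highest class was border macrophage-like for Ccl12 and monocyte or dendritic cell-like for Ccl9, and Cxcl2 was higher still in unnamed subcluster 8.9. They are the 250 bases before the start of the RefSeq gene on GRCm38.p6, 5′ to 3′ on the gene's strand, with capitals marking a TATA box (TATAAA) or an NF-kB site found on either strand. The NF-kB letters searched are those in capitals in Cxcl2 with any base allowed at the fifth position. The Ccl9 window holds overlapping matches of TATAAA on both strands in its second run of capitals. The windows lie at chr11:83649379-83649628 (minus strand, Ccl3), chr11:83578637-83578886 (minus strand, Ccl9), chr11:82101595-82101844 (plus strand, Ccl12) and chr5:90903649-90903898 (plus strand, Cxcl2).
Ccl3: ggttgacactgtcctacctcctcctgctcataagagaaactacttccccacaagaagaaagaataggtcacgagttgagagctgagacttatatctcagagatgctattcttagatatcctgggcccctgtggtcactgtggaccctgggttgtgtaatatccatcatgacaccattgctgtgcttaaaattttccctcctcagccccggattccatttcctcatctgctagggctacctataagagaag
Ccl9: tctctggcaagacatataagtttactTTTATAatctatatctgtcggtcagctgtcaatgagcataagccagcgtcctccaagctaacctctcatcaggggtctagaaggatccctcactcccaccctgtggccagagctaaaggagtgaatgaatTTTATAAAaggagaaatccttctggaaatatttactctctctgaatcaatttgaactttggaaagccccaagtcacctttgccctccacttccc
Ccl12: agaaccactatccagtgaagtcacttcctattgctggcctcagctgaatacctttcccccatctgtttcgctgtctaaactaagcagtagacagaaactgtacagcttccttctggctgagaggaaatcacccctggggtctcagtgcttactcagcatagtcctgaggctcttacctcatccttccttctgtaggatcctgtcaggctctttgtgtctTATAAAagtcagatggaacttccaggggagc
Cxcl2: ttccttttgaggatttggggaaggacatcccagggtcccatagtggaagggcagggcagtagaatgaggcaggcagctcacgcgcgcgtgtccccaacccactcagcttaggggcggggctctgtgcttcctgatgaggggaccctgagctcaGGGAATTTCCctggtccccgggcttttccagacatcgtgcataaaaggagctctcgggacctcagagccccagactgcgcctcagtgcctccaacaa
Of the 55 symbols, 40 were matched in the promoter table, with 47 windows between them. The NF-kB letters stood in the windows of 4 members (Ccr3, Cxcl1, Cxcl2 and Cxcl3) and in 0.356% of all 32851 windows. TATAAA stood in the windows of 12 members (Ccl12, Ccl25, Ccl27b, Ccl8, Ccl9, Cx3cl1, Cxcl13, Cxcl15, Cxcl3, Cxcl9, Cxcr4 and Xcr1) and in 12.4% of all windows. The PU.1 letters GAGGAAGT stood in the window of 1 member (Cxcr3) and in 2.44% of all windows. These are descriptions of letters and not of sites in use.

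The libraries held 1129743851 UMIs over 265025 barcodes, from 1861238 to 90307818 UMIs per library. After filters and removal of 15689 doublets, 234026 cells remained, 519 to 19342 per library, with a median of 2178 to 4873 UMIs per cell. Of the kept barcode sequences, 6675 occurred in at least 2 libraries, and the largest share that a pair of libraries had in common was 0.963%. Cells were grouped without the 61 features and the listed pathway genes (Pf4 among them) and named by marker lists, or, for subcluster 9.1 with few markers, by its cluster, and class names carry the ending -like for that reason, left out in figures and captions. Endothelial-like (98361) and astrocyte-like (92505) cells dominated, with 11274 microglia-like, 7087 oligodendrocyte-like, 3953 choroid plexus epithelial-like, 3875 pericyte-like, 2700 fibroblast-like, 2540 border macrophage-like and 2009 smooth muscle-like cells. Leukocytes were few, with 385 monocyte or dendritic cell-like, 300 B cell-like, 248 T or NK cell-like and 106 neutrophil-like cells, and neuron-like cells numbered 447. Unnamed cells made up 3.01% of the total, from 1.43% in the negative bin of ATV-CD98hc to 13.8% in the medium bin of control IgG. Endothelial-like cells gave 84.4% to 88.9% of all UMIs of the high libraries of the ATVs and 0.992% to 1.46% of those of their negative libraries.

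Levels are given for the 17 classes with at least 20 cells in at least 2 pools, first for the ligands of vascular, glial and stromal cells, then for those of myeloid cells and lymphocytes, and then for the receptors. They are CPM of the summed UMIs of a class, as mean ± SD over pools (n = 6, or n as given), and are compared within a gene and not between genes. In edgeR's quasi-likelihood test over pools, 134 of 612 pairs of class and member (21.9%) were called higher in the class than in the mean of the other classes, against 30.6% of all gene and class pairs tested. Border macrophage-like cells had 21 of 36 tested members called (27.1% of all genes there), monocyte or dendritic cell-like cells 20 of 36 (19.2% of all genes) and microglia-like cells 18 of 36 (35.3%). Astrocyte-like cells had 2 of 36 (45.9%) and endothelial-like cells 4 of 36 (47.5%). The classes were formed from other genes of the same cells, so these counts describe the classes. With the control IgG pools alone, 70 pairs were called, 68 of them also called over all pools.

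**Figure D1:**
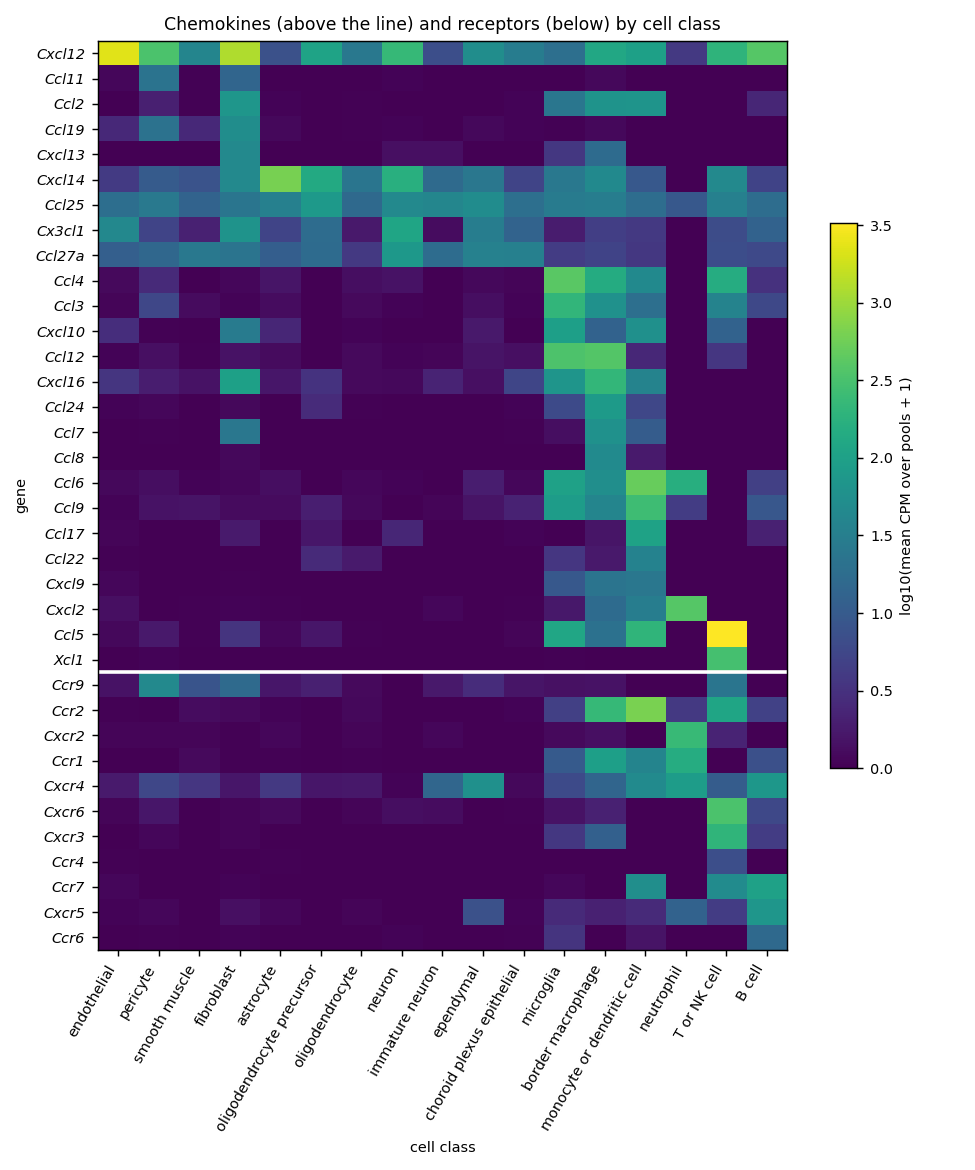
Heat map of the members described by level (rows, ligands above the white line and receptors below) in 17 cell classes (columns); colour is log10 of the mean CPM over pools plus 1. Cxcl12 is brightest in endothelial cells (2289 CPM) and fibroblasts (1239 CPM), Cxcl14 in astrocytes (623 CPM) and Ccl5 in T or NK cells (3289 CPM).

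Cxcl12, the ligand of CXCR4 and ACKR3, was highest in endothelial-like cells at 2289 ± 874 CPM (n = 6), and 91.2% of these cells had at least 1 of its UMIs. Its gene lies at chr6:117168535-117181367 (plus strand, GRCm38). The pools held 2778 and 3205 CPM under ATV-TfR, 2367 and 2792 under ATV-CD98hc, and 791 and 1804 under control IgG, so both control IgG pools lay below the 4 ATV pools. Control IgG pool 1 has no negative bin, and its endothelial-like cells come almost all from its low bin. Fibroblast-like cells came next at 1239 ± 147 CPM, and pericyte-like cells stood at 336 ± 98.5 CPM (n = 5). Levels of 384 ± 307 CPM in B cell-like cells and 229 ± 287 CPM in neuron-like cells (n = 5) spread about as widely as their means, and 9.67% and 13.5% of those cells had a UMI. In astrocyte-like cells the level was 6.35 CPM and 1.30% of cells had a UMI.

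Within the endothelial-like cells the Cxcl12 level followed the subcluster. Subcluster 20.3, led by Gm9946, Spock2 and Cxcl12 itself, held 3636 CPM in 16273 cells, and subcluster 20.0 held 164 CPM in 301 cells. The latter is led by Gkn3, Cytl1, Fbln5 and Eln, genes known from arterial walls. Subcluster 22.2 (8680 cells), led by Slc38a5 and Vwf, a marker of veins and large vessels, held 818 CPM. Subcluster 18.1, led by Igfbp3 and Plvap, the latter a marker of fenestrated vessels, held 697 CPM, and a neighbour led by Plvap and Plpp1 held 1138 CPM. The other 8 subclusters with 1277 to 19488 cells lay between 2226 and 3552 CPM. Since these subclusters came from other genes of the same cells, the levels are given without a test.

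**Figure D2:**
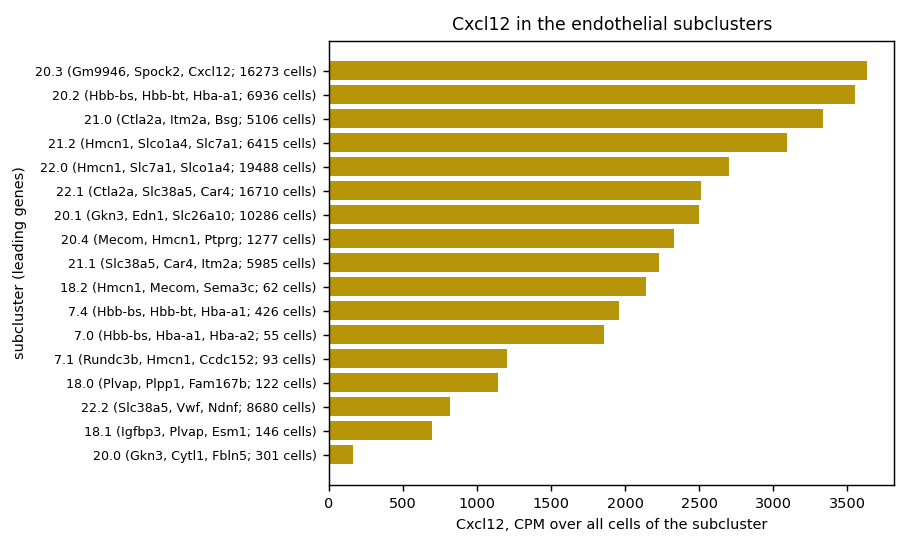
Cxcl12 level (CPM over all cells of a subcluster, horizontal axis) in the 17 endothelial subclusters, each labelled with its 3 leading genes and its number of cells. Subcluster 20.3 is highest at 3636 CPM and subcluster 20.0 lowest at 164 CPM.

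Cxcl14, a ligand expressed by astrocytes and some neurons, was highest in astrocyte-like cells at 623 ± 56.8 CPM (n = 5), where 75.3% of cells had a UMI. The pools read 694 and 675 CPM under ATV-TfR, 581 and 588 under ATV-CD98hc, and 575 in the 1 control IgG pool with enough astrocyte-like cells. Neuron-like cells (165 ± 189 CPM, n = 5) and oligodendrocyte precursor-like cells (136 ± 19.4 CPM, n = 4) followed. Endothelial-like cells stood at 2.96 CPM, with a UMI in 1.11% of cells. Cxcl14 lies at chr13:56288643-56296551 (minus strand).

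Cx3cl1, the membrane-bound ligand of the microglial receptor CX3CR1, was highest in neuron-like cells at 116 ± 46.0 CPM (n = 5), followed by fibroblast-like cells (64.0 ± 15.2 CPM) and endothelial-like cells (43.1 ± 3.72 CPM). Cx3cr1, which is not one of the 61 features, stood at 2970 CPM in microglia-like cells and 900 CPM in border macrophage-like cells. Ccl25 and Ccl27a were broad: Ccl25 ran from 79.4 ± 42.1 CPM in oligodendrocyte precursor-like cells (n = 4) to 33.4 ± 0.544 CPM in astrocyte-like cells (n = 5) over its 5 highest classes, and Ccl27a was highest in neuron-like cells at 74.5 ± 34.4 CPM (n = 5).

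The stromal cells of the brain lining and vessel wall had ligands of their own. Ccl19, a ligand of CCR7, stood at 51.8 ± 14.6 CPM in fibroblast-like cells and 20.5 ± 13.9 CPM in pericyte-like cells (n = 5). Most of the pericyte counts came from subcluster 10.4 (298 cells, led by Atp13a5, with Ccl19 also among its leading genes), which held 398 CPM. Its cells had a lower depth than their libraries (0.369 of the library median). Ccl11, the eotaxin that attracts eosinophils through CCR3, stood at 20.8 ± 4.82 CPM in pericyte-like cells (n = 5) and 12.9 ± 11.2 CPM in fibroblast-like cells. Cxcl13, the B cell attractant that binds CXCR5, was highest in fibroblast-like cells at 43.9 ± 35.6 CPM. Ccl2, the main ligand of CCR2, did not separate fibroblast-like (70.1 ± 18.1 CPM), monocyte or dendritic cell-like (65.4 ± 91.4 CPM) and border macrophage-like cells (63.4 ± 25.7 CPM) beyond their spread. It was a leading gene of fibroblast-like subcluster 23.6, which has 11 cells.

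Border macrophages live in the meninges, perivascular spaces and choroid plexus, and border macrophage-like cells had the highest class mean for several ligands. They held Ccl12 at 372 ± 97.5 CPM (microglia-like cells followed with a median of 92.7 CPM over pools), Cxcl16 (the ligand of CXCR6) at 214 ± 30.2, Ccl24 at 81.3 ± 28.0, Ccl7 at 59.0 ± 24.1 and Ccl8 at 46.6 ± 6.30 CPM. Ccl24 and Ccl8 were highest in subcluster 9.2, led by F13a1, Mrc1, Pf4 and Stab1, at 242 and 112 CPM, while in subcluster 9.1, led by the MHC class II genes H2-Eb1, H2-Aa and H2-Ab1, Ccl8 stood at 14.2 CPM. Pf4, a related chemokine outside the rule, stood at 1200 CPM in the class.

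Microglia-like cells carried Ccl3 and Ccl4 together with Ccl12, Ccl6 and Ccl9. Per pool, Ccl4 read 101 and 170 CPM under ATV-TfR, 178 and 98.8 under ATV-CD98hc, and 1805 and 123 under control IgG. Ccl3 read 44.4 and 114 CPM, 99.4 and 53.6, and 874 and 66.1 in the same order, and Ccl12 read 84.4 and 63.8, 117 and 83.3, and 1592 and 101. The outlying values are all from control IgG pool 1, which has only 30 microglia-like cells and no negative library. The plain mean ± SD of Ccl4 over the pools (413 ± 683 CPM) rests on that pool, and its median was 147 CPM. Subcluster 0.4 (397 cells, led by Ccl4, Ccl3, Trem2 and Ctsd) held Ccl4 at 1392 CPM, Ccl3 at 829, Ccl6 at 461, Ccl12 at 377 and Ccl9 at 289 CPM. It gave 61.6% of the Ccl3 UMIs and 56.8% of the Ccl4 UMIs of microglia-like cells, but 26.3% of those of Ccl6, 22.4% of Ccl12 and 21.6% of Ccl9. In the largest subcluster, 0.0 with 3489 cells, Ccl4 stood at 47.2 CPM. These are the genes whose promoters are printed above, apart from Ccl4 and Ccl6.

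Monocyte or dendritic cell-like cells were highest for Ccl6 (498 ± 102 CPM) and Ccl9 (267 ± 71.9 CPM), both ligands of CCR1. They were also highest for Ccl17 (104 ± 118 CPM) and Ccl22 (35.8 ± 55.6 CPM), ligands of CCR4. Ccl17 came from subcluster 8.0, led by Retnla, Mgl2 and Cd209a, at 263 CPM. Cxcl9 and Cxcl10, the interferon-induced ligands of CXCR3, had means below their SD in every leading class except fibroblast-like cells, where Cxcl10 stood at 27.6 ± 21.1 CPM. Among the named classes neutrophil-like cells, with 3 pools of at least 20 cells, were highest for Cxcl2 (391 ± 280 CPM, n = 3), a ligand of their own receptor CXCR2. Unnamed subcluster 8.9 (167 cells), outside the classes, held Cxcl2 at 3131 CPM and Ccl6 at 1203 CPM.

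In lymphocytes, Ccl5 stood at 3289 ± 1144 CPM in T or NK cell-like cells (n = 5), with a UMI in 61.2% of cells, against 0.0285% of endothelial-like cells. Xcl1, made by NK and CD8 T cells, stood at 305 ± 98.1 CPM in the same class, and the next class was at 0.0832 CPM. It stood at 504 CPM in the NK-gene subcluster 8.1 (led by Gzma and Nkg7) and 229 CPM in the T cell subcluster 8.2.

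Among the receptors, Ccr2 stood at 649 ± 148 CPM in monocyte or dendritic cell-like, 228 ± 70.7 in border macrophage-like, 115 ± 71.2 in T or NK cell-like (n = 5) and 3.61 ± 1.93 in microglia-like cells. Among border macrophage-like cells Ccr2 stood at 537 CPM in the MHC class II subcluster 9.1 and 60.6 CPM in subcluster 9.0.

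Ccr1 was highest in neutrophil-like (148 ± 14.4 CPM, n = 3) and border macrophage-like cells (94.9 ± 15.8 CPM), and Cxcr2 in neutrophil-like cells (232 ± 52.0 CPM, n = 3). Unnamed subcluster 8.9, outside the classes, held Ccr1 at 505 CPM and Cxcr2 at 633 CPM. Cxcr6 (328 ± 72.2 CPM) and Cxcr3 (201 ± 52.4 CPM) were highest in T or NK cell-like cells (n = 5). Cxcr6 was higher in T cell subcluster 8.2 (370 CPM) than in NK subcluster 8.1 (192 CPM). Ccr7 (103 ± 46.4 CPM), Cxcr5 (69.9 ± 39.5 CPM) and Ccr6 (15 ± 13.2 CPM) were highest in B cell-like cells. Ccr4 reached 5.95 ± 5.94 CPM in T or NK cell-like cells, from 7 UMIs in all.

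Cxcr4, the signalling receptor of CXCL12, was at 86.3 ± 35.1 CPM in neutrophil-like (n = 3), 70.8 ± 31.1 in B cell-like and 57.1 ± 11.0 CPM in ependymal-like cells (n = 5), which did not differ beyond their spread. Unnamed subcluster 8.9 held Cxcr4 at 327 CPM. The decoy receptor Ackr3, outside the rule, stood at 382 CPM in pericyte-like and 280 CPM in smooth muscle-like cells. Ccr9, the receptor of CCL25, was highest in pericyte-like cells at 44.1 ± 11.0 CPM (n = 5, 9.06% of cells with a UMI) and stood at 15.3 ± 9.82 CPM in fibroblast-like cells. It was also among the leading genes of unnamed subcluster 8.7 (10 cells), outside the classes.

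The next comparison asked whether cells of high AF647 fluorescence differed in these genes from cells of the same class in the negative bin. In the ATV-TfR mice, 20 of 64 tested pairs of class and member (31.2%) were called between the high and negative bins by edgeR at an adjusted p below 0.05, 13 higher and 7 lower in the high bin, in 13 members and 5 classes. Of all gene and class pairs tested there, 13.9% were called. In the ATV-CD98hc mice, 19 of 79 pairs (24.1%) were called, 12 higher and 7 lower, against 10.2% of all pairs. In control IgG, 2 of 43 pairs (4.65%) were called, both lower, against 6.86% of all pairs. With the pool as a replicate block the control IgG count was 7. Leaving out ATV-TfR pool 1 left 3 calls in ATV-TfR, and leaving out pool 2 left 9. In ATV-CD98hc 13 calls were made without ATV-CD98hc pool 1, 11 without pool 2 and 12 with at least 50 cells per sum. The high and negative libraries differ in make-up as well as in fluorescence, so a change in a class sum cannot be told apart from a change in which of its cells were sorted.

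Endothelial-like cells were few in the negative libraries, 125 and 86 under ATV-TfR and 82 and 58 under ATV-CD98hc. Cxcl12 was higher in the high than in the negative bin of these cells under both ATVs. Under ATV-TfR it read 753 and 727 CPM in the negative libraries, 1296 and 1076 in the low, 2621 and 2756 in the medium, and 2835 and 3287 in the high libraries. The high and negative libraries do not overlap, and the log2 fold change was 2.33 ± 0.27 (SE, edgeR adjusted p = 1.1e-06). Under ATV-CD98hc the negative libraries read 1182 and 871 CPM, the low 2505 and 2455, the medium 2411 and 3055, and the high 2296 and 2535 (log2 fold change 1.45 ± 0.27, edgeR adjusted p = 0.001). Here the low bin already stood at the level of the high bin. Control IgG did not follow this order: its single negative library read 2546 CPM, its low libraries 749 and 1193, and its medium libraries 2023 and 1048, with too few cells in the high libraries for a test.

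The endothelial-like cells of these bins were not of 1 kind. In the ATV-TfR negative bin 27.5% of them belonged to subcluster 20.0 and 19.9% to 18.1, both low in Cxcl12, while in the high bin 22.3% belonged to 22.1 and 16.2% to 20.3. In the low bin of control IgG 46.6% belonged to subcluster 22.2. Within subcluster 20.1 alone, Cxcl12 stood at 1215 CPM in the negative bin (39 cells) and 2917 CPM in the high bin (2752 cells) of ATV-TfR. Under ATV-CD98hc the same subcluster gave 901 CPM (55 cells) and 2635 CPM (1116 cells), with the 2 pools summed and no test. The 12 endothelial markers summed to between 20943 and 21931 CPM in the ATV-TfR negative libraries and between 29255 and 29378 CPM in the high ones, and 3 of 12 were called higher in each ATV. Their part in the result was not tested.

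Cx3cl1 moved the other way in endothelial-like cells. Under ATV-TfR it read 74.7 and 88.2 CPM in the negative and 41.1 and 41.4 CPM in the high libraries (log2 fold change -0.69 ± 0.21, edgeR adjusted p = 0.03). Under ATV-CD98hc it read 90.9 and 143 CPM against 49.8 and 45.7 CPM (log2 fold change -1.03 ± 0.23, edgeR adjusted p = 0.0055). Neither pool of ATV-TfR alone gave a call (-0.78 and -0.75), nor did ATV-CD98hc without pool 2 (-0.76). Over all 4 bins the slope did not pass in either ATV, and the low bin of ATV-CD98hc (50.4 and 51.0 CPM) was already at the level of the high bin. Cx3cl1 was highest in subclusters 18.1 (196 CPM) and 20.0 (131 CPM), both common in the negative bin of ATV-TfR.

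**Figure D3:**
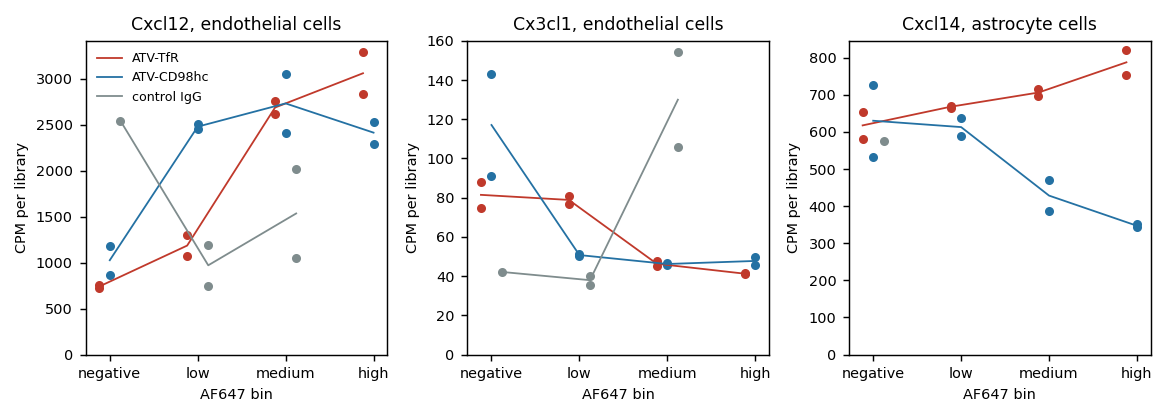
CPM per library (points) and mean per bin (lines) across the 4 AF647 bins for Cxcl12 and Cx3cl1 in endothelial cells and Cxcl14 in astrocytes, coloured by treatment; bins with fewer than 20 cells of the class are left out. Cxcl12 climbs from 727 to 3287 CPM under ATV-TfR, and Cxcl14 parts in opposite directions, up to 822 CPM under ATV-TfR and down to 343 CPM under ATV-CD98hc.

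Cxcl14 in astrocyte-like cells went in opposite directions under the 2 ATVs. Under ATV-TfR it read 654 and 582 CPM in the negative, 670.1 and 666 in the low, 715 and 697 in the medium, and 822 and 754 CPM in the high libraries (log2 fold change 0.46 ± 0.12, edgeR adjusted p = 0.014). Under ATV-CD98hc it read 533 and 728, 638 and 588, 386 and 471, and 343 and 351 CPM (log2 fold change -0.91 ± 0.14, edgeR adjusted p = 2.3e-04). Without either ATV-TfR pool the rise was of like size and not called (0.45 and 0.48). The difference between these changes was itself tested, at 1.37 ± 0.19 on the log2 scale (edgeR adjusted p = 1.5e-04). It was the 1 pair called of 43 tested for such a difference (2.33%, against 2.28% of all pairs), and with the pool as a replicate block 2 pairs were called. The astrocyte-like cells of the ATV-CD98hc high bin were few (184 and 208), and 49.0% of them belonged to cluster 4, while in its negative bin cluster 2 was the largest (46.7%). Under ATV-TfR cluster 2 was the largest in both the negative (36.4%) and the high bin (52.6%). Of the 10 astrocyte markers, 7 were called higher in the ATV-TfR high bin and 3 lower in the ATV-CD98hc high bin. Their part in the result was not tested.

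Cxcl12 also rose in the high bins in classes that otherwise hold little of it, and endothelial markers rose beside it. In astrocyte-like cells it read 0.843 and 0.636 CPM in the negative and 102 and 49.2 CPM in the high libraries of ATV-TfR (log2 fold change 6.82 ± 0.55, edgeR adjusted p = 1.2e-07), and the 12 endothelial markers, all called higher, summed to 10.4 to 13.6 CPM and 514 to 878 CPM. Under ATV-CD98hc it read 0.331 and 0.85 CPM against 7.45 and 58.3 CPM there (log2 fold change 5.88 ± 0.88, edgeR adjusted p = 1.9e-04), and was not called without ATV-CD98hc pool 2 (4.43). In border macrophage-like cells of ATV-TfR it read 4.27 and 6.68 CPM against 651 and 149 CPM, with 2 UMIs in the negative libraries (ratio 86.8, 95% counting interval 23.7 to 723), and the change was not called without ATV-TfR pool 1 (log2 fold change 4.14). In microglia-like cells of ATV-CD98hc it read 3.28 and 0 CPM against 198 and 173 CPM, with all 12 endothelial markers called higher. In choroid plexus epithelial-like cells it read 0.815 and 0 CPM against 158 and 88.0 CPM under ATV-TfR, with 1 UMI in the negative libraries (ratio 255, 95% counting interval 45.4 to 10128). Under ATV-CD98hc it read 2.24 and 3.32 CPM against 144 and 49.5 CPM there, with 3 UMIs in the negative libraries (ratio 39.3, interval 13.3 to 192), and was not called without ATV-CD98hc pool 1 (log2 fold change 3.78). The ratio of Cxcl12 UMIs to endothelial marker UMIs had a median over libraries of 0.0813 in endothelial-like cells, 0.0727 in astrocyte-like, 0.0882 in border macrophage-like, 0.0489 in microglia-like and 0.0403 in choroid plexus epithelial-like cells. It was 1.05 in fibroblast-like and 0.223 in pericyte-like cells. In oligodendrocyte-like (13 libraries), ependymal-like (2) and oligodendrocyte precursor-like cells (2) it was 0.1732, 0.1754 and 0.1997. In the other classes with a ratio it ran from 0.0523 (immature neuron-like) to 0.0992 (neuron-like). Of the calls between bins, 5 of 20 under ATV-TfR and 6 of 19 under ATV-CD98hc were Cxcl12 outside endothelial-like cells or Cxcl14 outside astrocyte-like cells. These counts include Cxcl12 in pericyte-like cells of ATV-TfR and fibroblast-like cells of ATV-CD98hc, and falls of Cxcl14. The median ratio of Cxcl14 to astrocyte marker UMIs was 0.0349 in astrocyte-like and 0.1385 in border macrophage-like cells. It was 0.0084 in choroid plexus epithelial-like and 0.008 in endothelial-like cells, and its part was not tested.

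**Figure D4:**
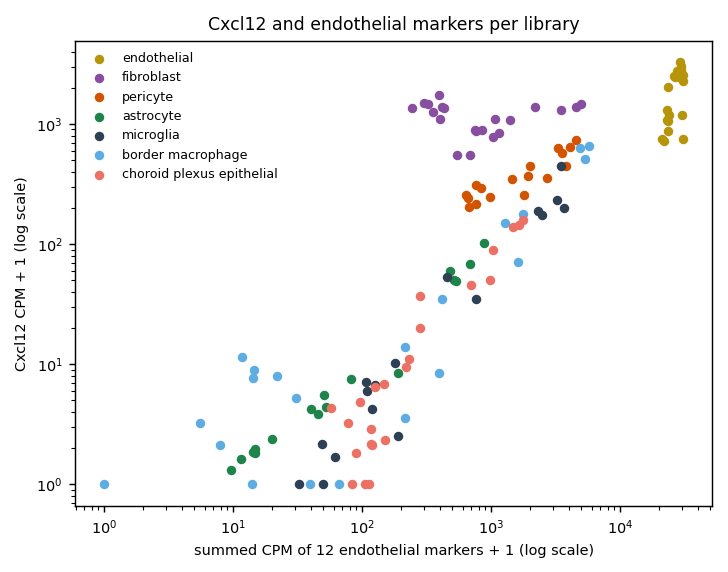
Each point is 1 library and class. Only endothelial, fibroblast, pericyte, astrocyte, microglia, border macrophage and choroid plexus epithelial cells are shown. The horizontal axis is the summed CPM of 12 endothelial markers plus 1 and the vertical axis the Cxcl12 CPM plus 1, both on log scales. Astrocytes, microglia, border macrophages and choroid plexus epithelial cells lie along 1 rising band toward the endothelial cells, and fibroblasts lie above it (median ratio 1.05 against 0.0813 in endothelial cells).

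Cxcl12 also rose in fibroblast-like and pericyte-like cells, where its ratio to endothelial markers is higher than in endothelial-like cells. In fibroblast-like cells of ATV-CD98hc it read 546 and 555 CPM in the negative and 1372 and 1304 CPM in the high libraries (log2 fold change 1.35 ± 0.22, edgeR adjusted p = 4.1e-04). In pericyte-like cells of ATV-TfR it read 257 and 242 CPM against 640.0 and 574 CPM (log2 fold change 1.30 ± 0.24, edgeR adjusted p = 8.2e-05). The first was not called without ATV-CD98hc pool 1 (1.32) and the second without either ATV-TfR pool (1.26 and 1.34). In both classes endothelial markers rose as well, 9 of 12 and 11 of 12, and their part in the result was not tested.

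Ccr9 fell steeply in fibroblast-like cells of the positive bins. Under ATV-CD98hc it read 69.0 and 58.4 CPM in the negative, 56.7 and 34.7 in the low, 17.3 and 23.5 in the medium, and 1.45 and 2.34 CPM in the high libraries. The high libraries held 3 UMIs, and the negative to high ratio was 33.4 (95% counting interval 9.66 to 178, edgeR adjusted p = 1.8e-04). Under control IgG the single negative library read 50.2 CPM and the high libraries 0 and 3.15 CPM, with 2 UMIs (ratio 26.6, interval 6.26 to 239, edgeR adjusted p = 0.0012). Under ATV-TfR the negative libraries read 55.4 and 42.0 CPM and the low 3.16 and 1.69 CPM, and the high bin had too few fibroblast-like cells. Without ATV-CD98hc pool 1 the log2 fold change under ATV-CD98hc was -4.47 and not called. The kind of fibroblast in the bins differed as well: subclusters 19.0 and 19.3, led by Slc6a13 and Spp1 and with Ccr9 at 65.3 and 75.1 CPM, made up 35.6% and 33.8% of the class in the negative bin of ATV-TfR, while the subclusters led by Coch and by Lum led the high bins of ATV-CD98hc (28.1% and 25.6%) and control IgG (33.5% and 41.9%). Ccl7 fell in the same ATV-CD98hc cells (25.1 and 165 CPM to 5.81 and 10.5 CPM), and this was not called without pool 2 (log2 fold change -2.05) or as a slope over all 4 bins.

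In pericyte-like cells of ATV-TfR, Ccl19 fell from 49.8 and 22.4 CPM in the negative libraries to 3.30 and 0 CPM in the high ones, where it had 2 UMIs (ratio 20.6, 95% counting interval 5.61 to 171, edgeR adjusted p = 9.1e-05), a call lost without ATV-TfR pool 1 and under DESeq2. Subcluster 10.4, the main source of Ccl19, made up 8.85% of pericyte-like cells in the negative and 6.93% in the high bin. Under ATV-CD98hc the negative libraries read 10.4 and 8.59 CPM and the high libraries 0 CPM in both, which was not called.

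In border macrophage-like cells of ATV-TfR, Ccr2 was lower and the ligands Ccl24, Ccl8 and Ccl7 were higher in the high bin. Ccr2 read 636 and 721 CPM in the negative, 223 and 75.1 in the low, 213 and 177 in the medium, and 26.8 and 197 CPM in the high libraries (log2 fold change -3.00 ± 0.52, edgeR adjusted p = 1.2e-04). In control IgG it read 725 CPM in the negative library and 180.2 and 91.7 CPM in the high ones (log2 fold change -2.47 ± 0.54, edgeR adjusted p = 0.017), from 25 cells in the 1 negative library. That call was lost under DESeq2 (-2.49) and as a slope over all 4 bins (-0.52). Ccl24 under ATV-TfR read 4.27 and 0 CPM in the negative and 107 and 74.6 CPM in the high libraries. With 1 UMI in the negative bin the ratio was 36.2 with a 95% counting interval of 6.08 to 1469 (edgeR adjusted p = 5.8e-04). Ccl8 (8.53 and 0 to 31.2 and 129 CPM) and Ccl7 (0 and 13.4 to 22.3 and 115 CPM) rose with 2 UMIs each in the negative bin, at ratios of 13.4 (interval 3.36 to 117) and 11.4 (interval 2.79 to 99.7). None of the 3 ligand changes passed as a slope over all 4 bins. Without ATV-TfR pool 1 none of them was called (7.54 for Ccl24, 8.33 for Ccl8 and 2.80 for Ccl7 on the log2 scale), nor was Ccr2 (-2.15), and without pool 2 Ccl8 (1.56) and Ccl7 (5.85) were not. Over all alternatives Ccl8 and Ccl7 each lost the call in 5 of 14. Cxcl13 was called from ATV-TfR high pool 1 alone (334 CPM against 0 in pool 2), and 0.0787% of all border macrophage-like cells had a UMI of it.

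The border macrophage-like cells of the bins were of different kinds. The MHC class II subcluster 9.1 made up 75.5% of them in the ATV-TfR negative bin, 10.3% in its high bin and 20.3% in the control IgG high bin. This subcluster had 3 of 10 border macrophage markers and took its name from its cluster, and Ccr2 is among its leading genes. Within subcluster 9.1, Ccr2 stood at 735 CPM in the ATV-TfR negative bin and 364 CPM in the control IgG high bin. Immediate early genes, which respond to dissociation, moved as well: of 15 tested, 6 were lower and 1 higher in the ATV-TfR high bin, with summed levels of 2215 to 2844 CPM in the negative and 1173 to 1271 CPM in the high libraries. Their part in the result was not tested.

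**Figure D5:**
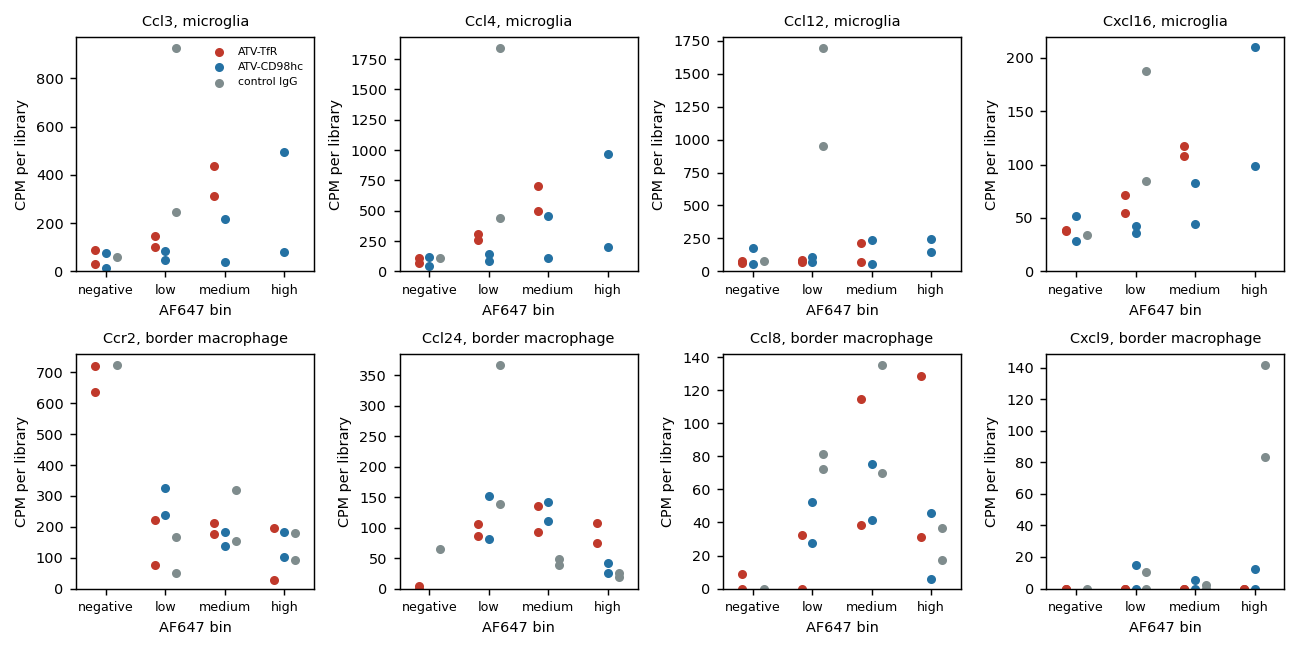
CPM per library across the AF647 bins for Ccl3, Ccl4, Ccl12 and Cxcl16 in microglia (top) and Ccr2, Ccl24, Ccl8 and Cxcl9 in border macrophages (bottom), coloured by treatment. Ccr2 is above 600 CPM in the negative libraries of ATV-TfR and control IgG and lower in every positive library, and the highest Ccl4 value is 1843 CPM in 1 control IgG low library of 27 cells.

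In microglia-like cells of ATV-CD98hc the ligands Ccl2, Ccl4, Ccl5, Cxcl2 and Cxcl16 were called higher in the high than in the negative bin, Ccl5 and Cxcl2 from 1 library each. Ccl3 (log2 fold change 2.16 ± 0.75, edgeR adjusted p = 0.1) and Cxcl10 (4.82 ± 2.10, edgeR adjusted p = 0.22) were not called. Ccl4 read 116 and 47.3 CPM in the negative, 141 and 82.1 in the low, 453 and 109.8 in the medium, and 201 and 971 CPM in the high libraries (log2 fold change 2.60 ± 0.62, edgeR adjusted p = 0.0096). Cxcl16 read 28.1 and 51.8 CPM against 99.1 and 211 CPM (log2 fold change 1.98 ± 0.38, edgeR adjusted p = 0.0014). Ccl2 (2.81 and 0 CPM against 8.74 and 90.3 CPM, log2 fold change 4.07 ± 1.04, edgeR adjusted p = 0.018) was called as well. Ccl5 was called on 1 high library (122 CPM in pool 1 and 0 in pool 2), and Cxcl2 on the other (0 and 67.7 CPM). The high libraries held only 74 and 32 microglia-like cells, and without pool 2 neither Ccl4 (log2 fold change 0.88) nor Ccl2 (1.70) was called, nor Cxcl2 (0.00), and without pool 1 Ccl5 was not (0.00). Over all alternatives Cxcl2 lost its call in 5 of 13. Under ATV-TfR the high bin had too few cells, and Ccl4 read 66.5 and 114 CPM in the negative, 255 and 310.1 in the low, and 704 and 500 CPM in the medium libraries. The low libraries of control IgG read 1843 and 443 CPM from 27 and 26 cells, against 114 CPM in its negative library.

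The chemokine-rich subcluster 0.4 made up 23.6% of the microglia-like cells of the ATV-CD98hc high bin and 26.4% of those of the control IgG low bin. Over all bins and treatments it held 397 of the 11274 microglia-like cells. Of 16 immediate early genes, 8 were called higher in the ATV-CD98hc high bin and none lower, with sums of 1013 to 1016 CPM in the negative and 1933 to 2747 CPM in the high libraries, and 6 of 10 microglia markers were lower. Their part in the result was not tested.

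In choroid plexus epithelial-like cells Ccl25 rose under ATV-TfR (10.6 and 18.1 CPM to 27.5 and 29.6 CPM, log2 fold change 0.98 ± 0.34, edgeR adjusted p = 0.028) and under ATV-CD98hc (11.2 and 13.3 CPM to 28.8 and 25.7 CPM, log2 fold change 1.01 ± 0.39, edgeR adjusted p = 0.042). Cx3cl1 rose there as well, from 4.08 and 13.6 to 14.8 and 23.9 CPM and from 4.47 and 9.97 to 19.4 and 22.4 CPM. In control IgG, Cx3cl1 read 4.65 CPM in the negative and 19.7 and 15 CPM in the high libraries, which was not called. Ccl27a fell under ATV-CD98hc (42.5 and 39.9 CPM to 21.9 and 21.0 CPM, log2 fold change -1.15 ± 0.30, edgeR adjusted p = 0.0025). Without 1 of the pools of their treatment Ccl25 and Cx3cl1 were not called in either ATV (log2 fold changes 0.56 to 1.86), nor was Ccl27a without ATV-CD98hc pool 1 (-1.0). With all pools kept DESeq2 called none of the Ccl25 and Cx3cl1 changes, and Ccl25 was not called at a minimum of 50 cells or with no filter in either ATV. In addition, endothelial markers rose in the same cells (12 of 12 in both ATVs), whose part was not tested. Cxcl5, a ligand of CXCR2, rose in astrocyte-like cells of ATV-TfR (log2 fold change 1.77 ± 0.55, edgeR adjusted p = 0.031), and was not called without either pool (1.39 and 2.02).

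Cxcl14 in border macrophage-like cells of ATV-TfR fell from 93.5 and 107 CPM in the negative libraries (39 UMIs) to 8.92 and 40.7 CPM in the high ones (8 UMIs), a log2 fold change of -2.44 ± 0.74 (edgeR adjusted p = 0.033). It was not called without either ATV-TfR pool (-1.47 and -3.80), and over all alternatives the call was lost in 6 of 14. The summed astrocyte markers of these cells were 140 to 145 CPM in the negative and 81.4 to 178 CPM in the high libraries. Other calls of these contrasts were falls in classes with few UMIs of the gene, among them Ccl4 in endothelial-like cells of ATV-TfR, and Cxcl14 in endothelial-like and choroid plexus epithelial-like cells of ATV-CD98hc. Ccl4 in endothelial-like cells rests on 2 UMIs in the negative and 3 in the high bin, and 5 of 10 microglia markers fell in the same cells. Its call was lost with either ATV-TfR or either control IgG pool left out. Under ATV-CD98hc, Cxcl14 in choroid plexus epithelial-like cells (3 UMIs in the negative and 0 in the high bin) lost its call with either pool of either ATV left out, at a minimum of 50 cells and as a slope. Cxcl14 in endothelial-like cells of ATV-CD98hc, at 6.99 and 28.7 CPM in the negative (7 UMIs) and 0.51 and 0.756 CPM in the high libraries, lost it without ATV-CD98hc pool 2 (log2 fold change -3.65).

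Of the 27 other genes of the pathway that were listed, 24 were tested between the bins of ATV-TfR, where 5 of 90 pairs of class and gene were higher and 16 lower in the high bin (23.3% called, against 13.9% of all pairs). Cx3cr1 (log2 fold change -3.53 ± 0.55, edgeR adjusted p = 7.4e-05) and Dock2 (-4.69 ± 0.79), a guanine exchange factor of leukocytes, were lower in endothelial-like cells, and Dpp4, a peptidase that trims chemokines, was higher there (1.43 ± 0.35). Cx3cr1 was also lower in astrocyte-like (-2.47), choroid plexus epithelial-like (-2.94) and pericyte-like cells (-2.83), and Elmo1 in the same 3 classes. Microglia markers fell beside them in endothelial-like (5 of 10), astrocyte-like (6 of 10) and choroid plexus epithelial-like cells (5 of 8 tested), with 0 of 5 tested called in pericyte-like cells, and their part was not tested. In border macrophage-like cells Pf4 was higher (1.16 ± 0.31, edgeR adjusted p = 0.015) and Rgs1, a brake on chemokine receptor signalling, lower (-2.42 ± 0.63). Under ATV-CD98hc 3 of 111 pairs were higher and 4 lower (6.31%, against 10.2% of all pairs), Dpp4 in endothelial-like cells again among the higher (1.69 ± 0.43, edgeR adjusted p = 0.018). Under control IgG 0 of 52 were higher and 3 lower (5.77%, against 6.86%), Cx3cr1 in choroid plexus epithelial-like cells and Gng2 and Tpst1 in fibroblast-like cells. When these bin changes were compared between the ATVs, 2 of 71 pairs were higher and 3 lower (7.04%, against 2.28% of all pairs). All lay in astrocyte-like cells, Gnai2 and Gnb1 higher and Ackr3, Cx3cr1 and Elmo1 lower for ATV-TfR. Between treatments, 4 of 257 pairs were higher and 0 lower for ATV-TfR against control IgG (1.56%, against 1.89% of all pairs), and 5 of 267 were higher and 1 lower for ATV-CD98hc against control IgG (2.25%, against 1.46%). Ccrl2 and Elmo1 in fibroblast-like cells were higher in both (1.56 and 1.68, and 1.52 and 1.63, on the log2 scale).

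The last comparisons set the treatments against each other, with the UMIs of a class summed over all bins of a pool. Of 180 pairs of class and member, 9 (5.00%) were called between ATV-TfR and control IgG, 7 higher and 2 lower, against 1.89% of all pairs. Between ATV-CD98hc and control IgG 14 of 185 (7.57%) were called, 10 higher and 4 lower, against 1.46% of all pairs. Between ATV-TfR and ATV-CD98hc 12 of 183 (6.56%) were called, 4 higher and 8 lower, against 1.83% of all pairs. The first and second comparisons share the control IgG pools. These counts moved with the settings. In the same order, leaving out a pool gave 15 to 26, 16 to 30 and 15 to 18 calls, no filter on low counts 31, 36 and 31, the replicate block 18, 25 and 16, and DESeq2 11, 8 and 6. The bins of a pool hold different numbers of cells of a class in each treatment, so treatments were also compared within bins. In the same order, 8, 11 and 9 of these calls could be fitted so; 8, 9 and 7 of them kept their direction, 1, 5 and 5 kept at least 80% of the log2 fold change, and 1, 2 and 3 were called again. In the negative bin alone 8, 8 and 9 could be fitted, of which 5, 3 and 5 kept their direction, 1 each kept 80% of the log2 fold change and none was called. A call lost in this way does not show that the change is absent. Control IgG had at least 20 astrocyte-like, pericyte-like or ependymal-like cells only in its negative library. Against control IgG, the within-bin and negative-bin comparisons of these classes are therefore the same.

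In fibroblast-like cells Ccr9 was higher under both ATVs. It read 23.4 and 16 CPM under ATV-TfR, 24.2 and 21.8 under ATV-CD98hc, and 1.26 and 5.39 under control IgG (log2 fold changes 2.44 ± 0.42, edgeR adjusted p = 0.0015, and 2.67 ± 0.40, edgeR adjusted p = 5.0e-04). Within bins the ATV-TfR change was 0.48 and not called and the ATV-CD98hc change was 2.28 and called, and in the negative bin alone they were 0.04 and 0.36. The fibroblast-like cells of a bin came from different clusters in the treatments: in the low bin cluster 19, which holds the Ccr9-rich subclusters, was the largest under ATV-CD98hc (89.0%) and cluster 23 the largest under ATV-TfR (61.8%) and control IgG (85.9%). In the medium bin cluster 19 led under ATV-CD98hc (54.2%) and cluster 23 under ATV-TfR (54.9%) and control IgG (93.0%), while in the negative bin cluster 19 made up 94.3% to 96.4% in every treatment. The part of this make-up in the fibroblast-like results was not tested. Ccl11, with log2 fold changes of 2.97 ± 0.51 (edgeR adjusted p = 0.0014) and 2.29 ± 0.53 (edgeR adjusted p = 0.012), was also higher, at 12.4 and 32.5 CPM under ATV-TfR and 8.96 and 17.8 under ATV-CD98hc, against 3.46 and 2.25 under control IgG. Cxcl10 was lower (21.9 and 5.70 CPM, 27.8 and 5.71 CPM, against 49.1 and 55.5 CPM), with log2 fold changes of -1.90 ± 0.49 (edgeR adjusted p = 0.025) and -1.71 ± 0.47 (edgeR adjusted p = 0.032). Only 420 kept cells of all kinds held a Cxcl10 UMI. Fibroblast-like subcluster 23.6, of 11 cells, was led by Cxcl10 and Ccl2, and its part was not tested. Cxcl13 was lower under ATV-CD98hc (33.6 and 10.7 CPM against 114 and 37.7 CPM, log2 fold change -1.81 ± 0.47, edgeR adjusted p = 0.024). Within bins none of these was called: Ccl11 was 1.28 under ATV-TfR and 2.04 under ATV-CD98hc on the log2 scale, Cxcl10 -1.08 and -0.79, and Cxcl13 under ATV-CD98hc -1.58. Single pools also decided calls. Cxcl13 was -0.79 without control IgG pool 1 and -1.21 without ATV-CD98hc pool 2, and neither was called. Cxcl10 was not called without pool 2 of the ATV concerned (-1.32 for ATV-TfR and -0.95 for ATV-CD98hc), nor was Ccl11 without ATV-CD98hc pool 2 (1.64). DESeq2 called neither Cxcl10 (-1.95 and -1.68) nor Cxcl13 (-1.82), and in the negative bin Cxcl10 under ATV-TfR had the opposite sign (4.55).

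Cxcl9 in border macrophage-like cells was at 0 UMIs in both ATV-TfR pools, at 4.39 and 4.73 CPM under ATV-CD98hc, and at 45.7 and 74.8 CPM under control IgG. Its level under control IgG was at least 26.2-fold higher than under ATV-TfR, against a floor of 3 UMIs over both ATV-TfR pools, and the log2 fold change of ATV-CD98hc was -3.72 ± 0.44 (edgeR adjusted p = 4.6e-06). Of all kept cells of every class, only 56 held a Cxcl9 UMI. The 203 control IgG UMIs thus lie in few of its 1466 border macrophage-like cells, and ATV-TfR had 499 such cells. The fold treats UMIs as independent counts. The control IgG counts came mostly from the high bin, at 83.3 and 142 CPM, which holds 395 and 379 of its border macrophage-like cells. Within bins neither difference was called (log2 fold changes -3.45 and -0.94).

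T or NK cell-like cells joined NK subcluster 8.1 and T cell subcluster 8.2, both with Ccl5 among their leading genes. With pools summed, subcluster 8.1 gave 20.0% of the class in the control IgG low bin (4 cells). It gave 40.0% in the ATV-TfR low bin (8 cells) and 22.4% in the ATV-CD98hc low bin (13 cells). The part of this mix in the Ccl5 result was not tested. No control IgG library held enough of the class for a comparison within bins (6, 14 and 10 cells). Ccl5 in T or NK cell-like cells read 4175 and 3602 CPM under ATV-TfR, 3621 and 3763 under ATV-CD98hc, and 1285 in the 1 control IgG pool with enough cells (24). Log2 fold changes were 1.74 ± 0.24 (edgeR adjusted p = 0.0025) and 1.67 ± 0.24 (edgeR adjusted p = 0.0013), and the second was not called with doublets kept (1.47). Cxcl2 in neutrophil-like cells read 713 CPM in the 1 ATV-CD98hc pool with enough cells (22), and 213 and 246 CPM in the control IgG pools (log2 fold change 1.80 ± 0.38, edgeR adjusted p = 9.6e-05), which DESeq2 did not call (1.82). In pericyte-like cells Ccl19 read 35.9 and 14.6 CPM under ATV-TfR, 6.85 and 10.1 under ATV-CD98hc, and 35.0 in the 1 control IgG pool. It was called lower under ATV-CD98hc than under control IgG (log2 fold change -2.0 ± 0.45, edgeR adjusted p = 0.028), and within bins the change was about as large (-1.84) and not called, nor was it by DESeq2 (-2.02) or with doublets kept (-1.97). Against ATV-CD98hc, ATV-TfR was higher by 1.62 ± 0.37 (edgeR adjusted p = 0.041), which was 0.77 and not called without ATV-TfR pool 1 and had the opposite sign within bins (-1.48). In the negative bin alone it kept its direction and was not called. DESeq2, doublets kept and a stricter filter on low counts also lost this call. In each comparison with a group of 1 pool, that pool is assumed to vary like the other groups, and the standard error and p hold no spread between pools of that group.

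Cxcl14 in astrocyte-like cells was higher under ATV-TfR than under control IgG by 0.29 ± 0.05 on the log2 scale (edgeR adjusted p = 0.043) and than under ATV-CD98hc by 0.26 ± 0.04 (edgeR adjusted p = 0.0097). Within bins the second difference was 0.54 and called and the first was 0.09 and not called, and in the negative bin alone they were -0.03 and 0.09. For the first these are the same comparison, since only the negative library of control IgG had enough astrocyte-like cells. It held 99.6% of those of control IgG pool 2, and the negative libraries of ATV-TfR held 6.15% and 6.83% of those of their pools. The second was not called without ATV-CD98hc pool 1 (0.24). Cxcl14 in fibroblast-like cells was higher under ATV-TfR (57.7 and 70.2 CPM) than under ATV-CD98hc (31.4 and 25.3 CPM), by 1.17 ± 0.22 (edgeR adjusted p = 0.014), and was called within bins too (1.19). It was not called in the negative bin alone (0.42), without ATV-CD98hc pool 2 (1.02) or without ATV-TfR pool 2 (0.99). The clusters of the bins given above for Ccr9 apply here too, and in the high bin cluster 19 led under ATV-TfR (15 of its cells) and cluster 23 under ATV-CD98hc (71.4%). Ccl6 (-1.65 on the log2 scale), Ccl9 (-1.79) and Ccl12 (-1.70), genes of myeloid cells, were lower in astrocyte-like cells under ATV-TfR than under ATV-CD98hc, and so were Cx3cr1 and 7 other genes of the pathway list in that class. Over all classes these 8 were the pathway calls of 265 pairs (3.02%, against 1.83% of all pairs). The 3 ligands stood below 1 CPM in that class. Ccl6 read 0.174 and 0.194 CPM under ATV-TfR and 0.374 and 0.801 under ATV-CD98hc, Ccl9 0.137 and 0.113 against 0.325 and 0.558, and Ccl12 0.137 and 0.0971 against 0.439 and 0.343. Without ATV-CD98hc pool 2 Ccl6 (-0.98) and Ccl9 (-1.33) were not called, and Ccl12 was not without ATV-CD98hc pool 1 (-1.53) or ATV-TfR pool 2 (-1.46). Ccl6 was also not called by DESeq2 or within bins, and in the negative bin alone it had the opposite sign.

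Of the treatment calls, 3 of the 9 of ATV-TfR against control IgG, 6 of the 14 of ATV-CD98hc and 6 of the 12 between the ATVs were Cxcl12 outside endothelial-like or Cxcl14 outside astrocyte-like cells, Cxcl14 in fibroblast-like cells among the last. Cxcl12 in T or NK cell-like cells read 31.4 and 78.3 CPM under ATV-TfR, 488 and 360.4 under ATV-CD98hc, and 0 in the 1 control IgG pool. Its level under ATV-CD98hc was at least 11.3-fold higher than under control IgG, against a floor of 3 UMIs in that pool (edgeR adjusted p = 0.0013, not called by DESeq2 or with doublets kept), and ATV-TfR was lower than ATV-CD98hc by 2.99 ± 0.39 on the log2 scale (edgeR adjusted p = 2.4e-04). Of 12 endothelial markers in these cells, 8 were called higher under ATV-CD98hc than under control IgG and 10 lower under ATV-TfR than under ATV-CD98hc. Cxcl12 in border macrophage-like cells read 198 and 44.2 CPM under ATV-TfR, 278 and 245 under ATV-CD98hc, and 1.76 and 7.78 under control IgG. In choroid plexus epithelial-like cells it read 35.9 and 20.3, 46.2 and 66.0, and 1.09 and 5.93 CPM. In both classes of both ATVs 10 to 12 of the 12 endothelial markers were called higher than under control IgG, and their part was not tested. Within bins the Cxcl12 differences from control IgG in choroid plexus epithelial-like cells were 2.0 for ATV-TfR and 3.35 for ATV-CD98hc on the log2 scale and not called, and in the negative bin they had the opposite sign (-3.45 and -1.25). The ATV-TfR difference in border macrophage-like cells was not called within bins either (3.28). In B cell-like cells Cxcl12 read 456 and 99.6, 563 and 880.0, and 145 and 161 CPM, with a call for ATV-CD98hc against control IgG (log2 fold change 2.27 ± 0.49, edgeR adjusted p = 0.021) that DESeq2 and the replicate block did not make and that had the opposite sign within bins (-5.80). In ependymal-like cells it read 15.2 and 21.5, 129 and 74.4, and 21.9 CPM in the 1 control IgG pool. The difference between the ATVs there fell from -2.54 to -0.10 within bins. That of ATV-CD98hc from control IgG changed sign within bins, here the negative bin alone (-1.03), and with doublets kept (-0.34). DESeq2 did not call it. In microglia-like cells it read 8.29 and 4.33, 42.5 and 42.5, and 0 and 11.1 CPM, called between the ATVs (log2 fold change -2.67 ± 0.28, edgeR adjusted p = 0.0088) but not within bins (-1.75) or in the negative bin (-1.48). In astrocyte-like cells it read 5.28 and 2.78 under ATV-TfR and 8.22 and 12.6 under ATV-CD98hc, called as well (-1.35 ± 0.29, edgeR adjusted p = 0.02). That call was lost without ATV-CD98hc pool 2 (-1.0) and under DESeq2, and in the negative bin the sign was opposite. Cxcl14 in choroid plexus epithelial-like cells read 9.46 and 8.89 CPM under ATV-TfR, 2.42 and 3.91 under ATV-CD98hc, and 0 and 0.468 under control IgG, where it had 3 UMIs. The ratio to control IgG was 36.4 (95% counting interval 12.1 to 179) for ATV-TfR and 11.6 (interval 3.68 to 59.0) for ATV-CD98hc. Within bins the ATV-CD98hc difference was not called, and in the negative bin alone it had the opposite sign. The ATV-TfR difference was not called in the negative bin alone. The endothelial-like cells themselves, at 791 to 3205 CPM, gave no Cxcl12 call between treatments.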

How the data were processed

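Droplet single-cell RNA-seq was analysed in 23 libraries of 12 groups, each a treatment and AF647 bin. The deposited values are raw UMI counts per gene and cell barcode in filtered matrices, which the authors made with Cell Ranger 7.1.0 on the mm10 build, per the submitters' processing notes, which also name Seurat. The other deposited columns (gene names and barcodes, neither counts nor scores) only label these counts. The members and all gene lists were chosen with earlier results of these data known.

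Barcodes needed 500 genes and 800 UMIs or more, of which mitochondrial UMIs could make up no more than 10%, and doublets were removed with Scrublet (0.690% to 12.2% per library; in 8 libraries by a percentile rule). Cells were clustered in scanpy 1.11.5 (2000 variable genes without members, 50 components, 15 neighbours, Leiden resolution 1.0, then 0.5 within clusters) and named by marker lists.

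UMIs were summed per class and library (bins) or per class and pool (treatments and classes), with at least 20 cells per sum. They were tested with edgeR 4.0.16 (TMM, filterByExpr, quasi-likelihood) with Benjamini-Hochberg adjustment over all genes of a class, called at an adjusted p below 0.05. Ratios with 1 to 3 UMIs carry 95% counting intervals, which cover counting error only. Nothing beyond the pool of mice separates replicates, and p-values measure the spread between pools. In the class test the pools of all treatments are joined within a class, so that spread also holds treatment differences. The same pools of mice enter every class there. Members reaching 5 CPM in their highest class, or among the 3 highest of a class, are given by level, and called members, up to the 10 largest changes per contrast, with values. Bins of a pool come from the same animals: over 25 pairs of bins, deviations from the group means correlated from -0.277 to 0.937 (median 0.216; 20 above 0.1). On data simulated for the ATV-TfR bins of endothelial-like cells (14665 genes tested), 8.00% of 2-fold and 58.6% of 4-fold changes were recovered, and 7.00% of calls were false. In the other simulated comparisons false calls made up 3.30% to 18.0% of calls, with 13.9% for microglia-like cells of ATV-TfR against control IgG and 18.0% for microglia-like cells against the other classes. Alternatives were DESeq2 1.42.0, other size factors, filters, cell minimums, doublets kept, a slope over bins, matched bins, a replicate block and each pool left out. The values of 1 member are not reported here, though it stays in the counts of tested and called pairs.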

Additional observations from a re-analysis of the deposited data

Results flagged for a closer look

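Control IgG pool 1 stood apart in microglia-like cells, where it has 30 cells and no negative library. Ccl3 was 874 CPM there against 114 CPM in the nearest of the other 5 pools, Ccl4 1805 against 178 and Cxcl10 553 against 18.7. In the same pool Cxcl13 in fibroblast-like cells was 114 CPM, with 37.7 CPM next. Ccl5 in T or NK cell-like cells of control IgG pool 2 was 1285 CPM from 24 cells, with the other 4 pools at 3602 CPM or more. Cxcl9 in monocyte or dendritic cell-like cells of ATV-TfR pool 2 was 106.0 CPM from 60 cells, against 30.0 CPM next. Each of these was a gap wider than Dixon's critical value allows. Of 32 groups tested this way, chance flags about 1 in 20.

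The change of Cxcl14 from the negative to the high bin in astrocyte-like cells differed between ATV-TfR and ATV-CD98hc by 1.37 on the log2 scale, by a test of the difference itself.

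Subcluster 8.9 (167 cells), which no marker list named, was led by Il1b, Cxcl2, Il1r2, Fos, Slpi and Hdc. It held Cxcl2 at 3131 CPM, Ccl6 at 1203, Cxcr2 at 633, Ccr1 at 505 and Cxcr4 at 327 CPM, each above every named class. It stands outside all comparisons of the report, and its levels per treatment were not computed.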

How the results depend on the processing

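Between bins, the ATV-TfR count of 20 calls ranged from 3 to 21 when a pool was left out (3 without ATV-TfR pool 1, 9 without pool 2), and the ATV-CD98hc count of 19 from 11 to 19, with 12 at a minimum of 50 cells. The control IgG count of 2 became 1 at 50 cells, 5 with no filter on low counts and 2 to 4 with a pool left out; leaving out control IgG pool 2 gave no value. With the replicate block it was 7, the first 2 among them. The difference between the ATVs gave 1 call, and 2 with no filter, with the replicate block or as a slope. Elsewhere between bins the replicate block gave 22 and 24 calls.

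Between treatments, where pools share only a number, the replicate block gave 18 calls for ATV-TfR against control IgG (9 without it), 25 for ATV-CD98hc against control IgG (14) and 16 between the ATVs (12). In the same order, no filter gave 31, 36 and 31, the negative bin alone 3, 2 and 0, and leaving out a pool 15 to 26, 16 to 30 and 15 to 18, where a group of 1 pool also loosens edgeR's filter. Doublets kept gave 15 for ATV-TfR against control IgG, DESeq2 gave 8 for ATV-CD98hc against control IgG and 6 between the ATVs, and matched bins gave 9 for ATV-CD98hc against control IgG. Between classes, 134 pairs became 70 with control IgG pools alone and 123 to 134 with a pool left out.

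The log2 fold changes under alternatives include those of a member's highest class against the other classes, where only Cxcl9, Cxcl10 and Cxcl13 lost a call. The losses lie mostly in the comparisons of bins and treatments. Of all together, 1320 kept direction and call, 161 lost the call and 12 changed sign. In matched bins these were Cxcl12 in B cell-like (-5.80) and ependymal-like cells (-1.03) for ATV-CD98hc against control IgG, and Ccl19 in pericyte-like cells (-1.48) between the ATVs. In the negative bin alone, for ATV-CD98hc against control IgG, they were Cxcl12 in choroid plexus epithelial-like (-1.25) and ependymal-like cells (-1.03) and Cxcl14 in choroid plexus epithelial-like cells (-0.49). For ATV-TfR against control IgG they were Cxcl12 in choroid plexus epithelial-like cells (-3.45) and Cxcl10 in fibroblast-like cells (4.55). Between the ATVs they were Ccl6 (1.53), Cxcl12 (0.55) and Cxcl14 (-0.03) in astrocyte-like cells. With doublets kept, Cxcl12 in ependymal-like cells was -0.34 for ATV-CD98hc against control IgG. The -1.03 of ependymal-like cells is listed under matched bins and under the negative bin, which are there the same comparison. The causes were not tested. Depth limits the trace genes: several calls rest on 3 UMIs or fewer in 1 group.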
